A study of Homo sapiens with 6 samples.

Results

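The mitochondrial genome of human cells encodes 37 genes, and all of them had a row in the deposited gene table: 13 mRNAs, 2 ribosomal RNAs (rRNAs) and 22 transfer RNAs (tRNAs). They were chosen by name alone, as every gene whose symbol starts with MT-, and make up 37 of 62700 genes. After the filter on low counts 35 of them were tested, among 24325 genes. MT-TF and MT-TV, the tRNAs for phenylalanine and valine, held 0 to 10 counts per library and were not tested.

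The libraries came from PC3, an established human prostate cancer cell line, in 2 groups. The control group carried a negative-control short hairpin RNA (shRNA) and is labelled wild type. The TTC3 shRNA group is labelled as a knockdown of TTC3, which encodes an E3 ubiquitin ligase. There were 3 libraries per group, made from rRNA-depleted total RNA of cells grown without any other stated treatment. How many hairpins were used, and whether the cells were pools or single clones, was not stated in the labels. Nor do the labels call the replicates separate cultures, so the tests measure library-to-library spread, part or all of which may be technical.

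Mitochondrial DNA is transcribed from both strands into long precursors by the polymerase POLRMT with TFAM and TFB2M. Most mRNAs and rRNAs in these precursors are flanked by tRNAs, and the nucleases RNase P and ELAC2 release the RNAs by cutting at the tRNA ends. One strand gives MT-ND6 and a minority of the tRNAs, the other gives both rRNAs, the remaining mRNAs and most tRNAs. All the mRNAs encode subunits of respiratory complexes I, III, IV or V, whose other subunits come from nuclear genes, and complex II has no mitochondrially encoded subunit.

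A pair of tRNA neighbourhoods is printed because TTC3 shRNA replicate 1 was the lowest library of its group in the first and the highest in the second. The sequences are the GENCODE 29 transcripts on GRCh38 (hg38), in the direction of the tRNA, with the anticodon in capitals. In the first, MT-TW (tryptophan, chrM:5512-5579, plus strand) faces 4 tRNAs of the opposite strand: MT-TA (alanine, chrM:5587-5655), MT-TN (asparagine, chrM:5657-5729), MT-TC (cysteine, chrM:5761-5826) and MT-TY (tyrosine, chrM:5826-5891).
MT-TW: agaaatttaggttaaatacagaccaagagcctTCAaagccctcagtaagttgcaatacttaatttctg
MT-TA: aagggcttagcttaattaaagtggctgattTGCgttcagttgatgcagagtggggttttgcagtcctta
MT-TN: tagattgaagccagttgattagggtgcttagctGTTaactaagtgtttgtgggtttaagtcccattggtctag
MT-TC: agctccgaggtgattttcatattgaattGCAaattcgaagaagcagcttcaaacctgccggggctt
MT-TY: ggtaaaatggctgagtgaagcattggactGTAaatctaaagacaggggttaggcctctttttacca

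The second neighbourhood lies on the plus strand between MT-ND4 and MT-ND5 and holds 3 tRNAs with no base between them. They are MT-TH (histidine, chrM:12138-12206), MT-TS2 (serine, chrM:12207-12265) and MT-TL2 (leucine, chrM:12266-12336).
MT-TH: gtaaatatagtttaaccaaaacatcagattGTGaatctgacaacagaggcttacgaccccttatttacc
MT-TS2: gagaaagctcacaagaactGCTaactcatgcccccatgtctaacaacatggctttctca
MT-TL2: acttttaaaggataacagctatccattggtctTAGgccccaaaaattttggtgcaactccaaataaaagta

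Libraries held 143246356 to 155526861 estimated counts, and levels are given as CPM, counts scaled to a common library size with TMM factors. TTC3 was at 695, 684 and 680 CPM in control replicates 1, 2 and 3 and at 228, 183 and 178 CPM in TTC3 shRNA replicates 1, 2 and 3, a log2 change of -1.81 ± 0.10 (SE, edgeR adjusted p = 5.65e-05). TTC3 shRNA replicate 1 stood apart from the other libraries of its group. The median chi-square per gene between replicates was 27.8 and 35.5 times sampling noise for pairs with it, 7.42 times between TTC3 shRNA replicates 2 and 3, and 3.85 to 4.95 times between controls. The epithelial markers KRT8, KRT18 and EPCAM summed to 321 to 470 CPM. CD3E, CDH5, CHGA and KLK3 were listed at 0 in every library, and androgen receptor was at most 0.837 CPM. Leukocyte markers summed to at most 1.07 CPM, endothelial markers to at most 5.64 CPM and neuroendocrine markers to at most 1.47 CPM. Fibroblast markers summed to 15.8 to 17.7 CPM in controls and 49.8 to 55.6 CPM with TTC3 shRNA, nearly all of it PDGFRA, with DCN and LUM each at most 0.442 CPM.

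The 3 classes of mitochondrial RNA behaved differently. Mitochondrial tRNA estimates were higher in all 3 TTC3 shRNA libraries, while mitochondrial mRNA levels were above control in TTC3 shRNA replicate 1 and mostly below control in replicates 2 and 3. By the edgeR quasi-likelihood test 17 of 20 tested tRNAs rose, with a median log2 change of 1.12 over the 20, and 1 of 2 rRNAs rose. Of the 13 mRNAs 2 rose, and their median was -0.10. Over all tested genes 15.7% were called higher and 17.8% lower, with a median of -0.02. No mitochondrial gene was called lower by edgeR, DESeq2 or limma-voom, and 0 were lower at an unadjusted edgeR p under 0.05. All 3 TTC3 shRNA libraries lay above all controls for 19 of 20 tRNAs, 1 of 2 rRNAs and 2 of 13 mRNAs, against 23.3% of tested genes. In bulk RNA, fewer cells with an RNA and less of it per cell cannot be told apart.

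Shares of all counts show the same split. The mRNAs took 5.52%, 5.27% and 5.50% of counts in control replicates 1, 2 and 3, and 6.26%, 3.70% and 3.51% in TTC3 shRNA replicates 1, 2 and 3. Replicate 1 was thus above every control, and replicates 2 and 3 were below every control. The exact permutation test over 6 libraries gave p = 0.4 (two-sided, adjusted p = 0.4 over 4 shares). The tRNAs took 0.0180%, 0.0179% and 0.0184% in controls and 0.0304%, 0.0275% and 0.0307% with TTC3 shRNA, so the groups did not overlap. The rRNAs took a mean of 0.000483% ± 3.03e-05 in controls and 0.000761% ± 6.40e-05 with TTC3 shRNA (SD, n = 3 each, exact permutation test below). For tRNAs and for rRNAs the permutation p was 0.1 (adjusted p = 0.2), and 0.1 is the smallest value that 3 libraries against 3 can give. The rRNA share was measured after rRNA depletion, and the share of each class covers only molecules that the library preparation retained.

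**Figure D1:**
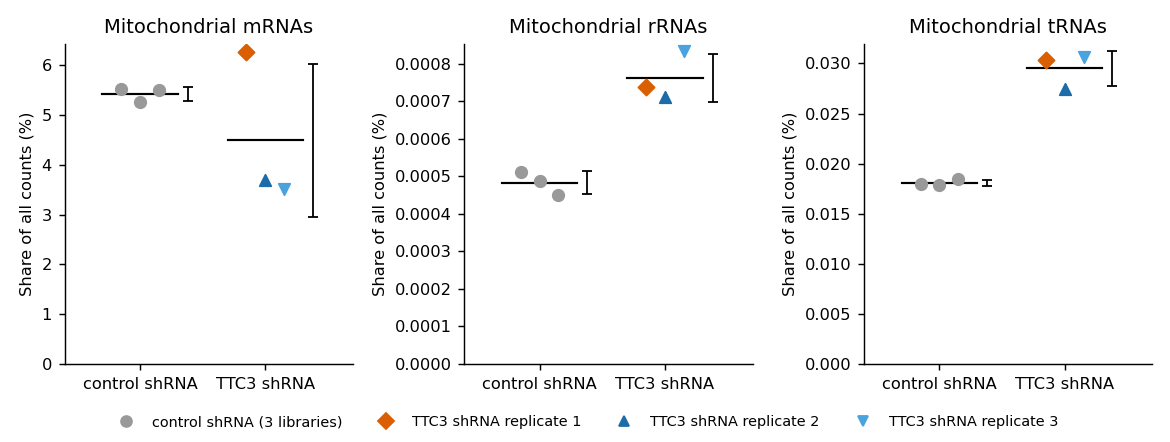
Percent of all counts assigned to mitochondrial mRNAs, rRNAs and tRNAs (y axes, each from 0) in each library by group (x axis); horizontal lines are group means and bars are ± SD (n = 3). The mRNA share of TTC3 shRNA replicate 1 is 6.26%, above all controls, while replicates 2 and 3 are at 3.70% and 3.51%; the tRNA share of all 3 TTC3 shRNA libraries lies above all controls.

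Among the 7 mRNAs for complex I, the NADH dehydrogenase, MT-ND1 was the one that rose. MT-ND1 (ENSG00000198888.2, chrM:3307-4262) was at 3477, 3306 and 3445 CPM in controls and 5755, 4345 and 4434 CPM in TTC3 shRNA replicates 1, 2 and 3. All 3 TTC3 shRNA libraries were above all controls, replicate 1 by the most, and the log2 change was 0.51 ± 0.12 (SE, edgeR adjusted p = 0.0151). MT-ND2 (chrM:4470-5511) was at 5666, 5454 and 5635 CPM against 7265, 3818 and 3486 CPM, so replicate 1 and the other replicates lay on opposite sides of the controls.

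MT-ND4 and MT-ND5 encode the large membrane subunits that follow in the genome. MT-ND4 (chrM:10760-12137) was at 8466, 8073 and 8441 CPM in controls and 8880, 5257 and 4803 CPM in TTC3 shRNA replicates 1, 2 and 3. MT-ND5 (chrM:12337-14148) was at 4663, 4524 and 4732 CPM against 5231, 2726 and 2409 CPM. In both genes replicates 2 and 3 lay far below the controls and replicate 1 lay above them. The log2 changes over all 3 replicates were -0.40 ± 0.22 for MT-ND4 and -0.43 ± 0.27 for MT-ND5 (SE), and neither passed (edgeR adjusted p = 0.204 and 0.273).

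The shorter complex I genes moved less. MT-ND3 (chrM:10059-10404) was at 173, 146 and 158 CPM against 188, 163 and 189.6 CPM, with overlapping groups. MT-ND4L (chrM:10470-10766) was at 851, 808 and 855 CPM against 925, 765 and 848 CPM. Its groups also overlapped, with the lowest and the highest values both in TTC3 shRNA libraries. MT-ND4L shares 7 bases with MT-ND4, which is 2.36% of MT-ND4L and 0.508% of MT-ND4. No tRNA lies between the 2 genes, so their levels need not be those of separate molecules. Their levels also depend on how reads were divided between them. Whether the 2 genes differ apart from the division of reads was not tested. MT-ND6 (chrM:14149-14673, the only mRNA of its strand) was at 268, 260.2 and 265 CPM against 319, 232 and 236 CPM, with replicate 1 above and replicates 2 and 3 below the controls. The edgeR adjusted p values were 0.170, 0.913 and 0.953 for MT-ND3, MT-ND4L and MT-ND6.

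Complex III, which passes electrons to cytochrome c, has MT-CYB as its mitochondrially encoded subunit. MT-CYB (chrM:14747-15887) was at 2695, 2567 and 2754 CPM in controls and 2721, 1561 and 1472 CPM in TTC3 shRNA replicates 1, 2 and 3. Replicate 1 fell within the control range and replicates 2 and 3 well below it. Its log2 change of -0.48 ± 0.23 was the lowest of the 35 tested mitochondrial genes and did not pass (SE, edgeR adjusted p = 0.145).

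Complex IV, cytochrome c oxidase, has the catalytic core subunits MT-CO1, MT-CO2 and MT-CO3. MT-CO1 (chrM:5904-7445) took the largest part of mitochondrial mRNA counts and was at 12964, 12496 and 12981 CPM against 15047, 9108 and 8817 CPM. MT-CO2 (chrM:7586-8269) was at 4442, 4218 and 4514 CPM against 4964, 2979 and 2852 CPM. MT-CO3 (chrM:9207-9990) was at 2035, 1885 and 1968 CPM against 2889, 1841 and 1734 CPM. In each of the 3 genes replicate 1 was above all controls and replicates 2 and 3 were below all of them. None passed the edgeR test over all 3 replicates (adjusted p = 0.434, 0.322 and 0.617).

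Complex V, the ATP synthase, has MT-ATP8 and MT-ATP6, which are read from 1 mRNA and share 46 bases. The shared stretch, chrM:8527-8572 on the plus strand, is shown because reads from it belong to both genes, and it makes up 22.2% of MT-ATP8 and 6.76% of MT-ATP6. The start codon of MT-ATP6 is in capitals.
MT-ATP8/MT-ATP6 overlap: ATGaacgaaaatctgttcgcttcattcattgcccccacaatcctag
MT-ATP8 (ENSG00000228253.1, chrM:8366-8572) was at 1825, 1836 and 1867 CPM in controls and 2312, 2289 and 2769 CPM in TTC3 shRNA replicates 1, 2 and 3. All 3 TTC3 shRNA libraries were above all controls, and MT-ATP8 rose by 0.41 ± 0.09 (log2 change and SE, edgeR adjusted p = 0.0116). MT-ATP6 (chrM:8527-9207) was at 4973, 4944 and 5107 CPM against 6134, 3996 and 3902 CPM, above the controls in replicate 1 and below them in replicates 2 and 3. Estimates of both genes come from the same molecules, so the level of each depends on how reads were divided between them.

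**Figure D2:**
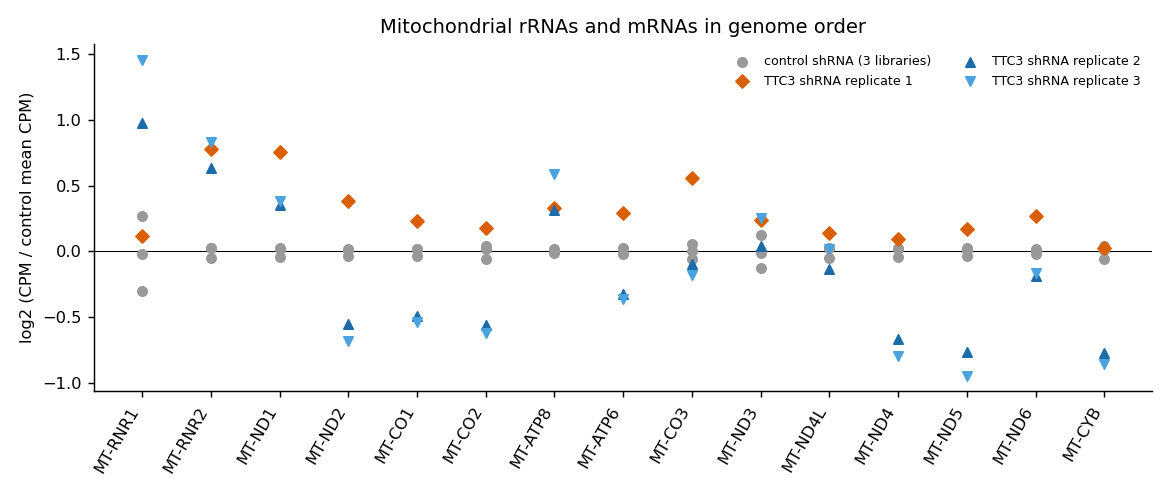
Log2 of each library's CPM over the control mean (y axis) for the 2 rRNAs and 13 mRNAs in genome order (x axis), with controls in grey and each TTC3 shRNA replicate marked. TTC3 shRNA replicate 1 is above the control mean for 13 of 13 mRNAs, while replicates 2 and 3 are above it for 3 and 4 of 13.

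TTC3 shRNA replicate 1 therefore decided the mRNA result. Its median mRNA change against the control mean was 0.24 on the log2 scale, against -0.33 and -0.36 in replicates 2 and 3. Without replicate 1, edgeR called 8 of 13 mRNAs lower and 2 higher, where 27.8% and 26.3% of all 25416 genes tested that way were called. The largest falls were then MT-ND5 at -0.84 (edgeR adjusted p = 1.09e-05), MT-CYB at -0.80 (5.02e-06) and MT-ND4 at -0.71 (9.67e-06). MT-ND2, MT-CO1, MT-CO2, MT-ATP6 and MT-ND6 also fell, while MT-ND1 and MT-ATP8 stayed higher at 0.38 and 0.47. The calls of MT-ND1 and MT-ATP8 over all libraries were lost when any 1 control was left out (edgeR adjusted p = 0.0536 to 0.0710), and that of MT-ND1 also with library totals in place of TMM (0.0691).

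The relative make-up of the mitochondrial mRNAs moved one way in all 3 TTC3 shRNA libraries for several members, whatever the direction of the total. MT-ND1 made up 6.57% ± 0.0491 of mitochondrial mRNA counts in controls (SD, n = 3) against 9.19%, 11.1% and 11.7% in TTC3 shRNA replicates 1, 2 and 3. MT-CO3 made up 3.78% ± 0.0830 in controls and 4.61%, 4.71% and 4.57% with TTC3 shRNA. Both were thus a larger part of the pool in every TTC3 shRNA library.

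Other members became a smaller part. MT-ND4 made up 16.0% ± 0.0767 in controls and 14.2%, 13.5% and 12.7% with TTC3 shRNA, and MT-CYB made up 5.15% ± 0.0722 against 4.34%, 3.995% and 3.88%. MT-ND5 made up 8.94% ± 0.0493 against 8.35%, 6.98% and 6.35%. The change of MT-ATP8, from 3.55% ± 0.0799 to 3.69%, 5.86% and 7.30%, lay almost wholly in replicates 2 and 3. A second edgeR fit took the summed mRNA counts as library size, so that each mRNA is part of its own denominator. It called 1 of 13 mRNAs higher, MT-ND1 at 0.70 ± 0.18 (SE, adjusted p = 0.0415), where 3.44% of all genes were called higher and 5.92% lower. None was called lower (0 at an unadjusted p under 0.05, 0 by limma-voom). The relative call of MT-ND1 was lost with the replicate block (edgeR adjusted p = 0.0520), with any 1 control left out (0.207 to 0.213) and without TTC3 shRNA replicate 2 or 3 (0.105 and 0.113).

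Without TTC3 shRNA replicate 1, the fit relative to the mRNA pool called 6 of 13 mRNAs higher and 5 lower (46.4% and 12.9% of all genes). The higher ones were MT-ND1, MT-ATP8, MT-CO3, MT-ND3, MT-ND4L and MT-ND6, and the lower ones MT-ND2, MT-CO2, MT-ND4, MT-ND5 and MT-CYB. The share called higher among the mRNAs was thus near that over all genes. MT-ATP8, MT-ND4L and MT-ND3, the shortest of the 13 as annotated genes, were among the higher ones. MT-ND4L and MT-ND4, which overlap with no tRNA between them, were called in opposite directions (0.38 and -0.30). MT-ATP8 was called higher (0.89), while MT-ATP6, read from the same mRNA, was not called (0.09). The calls within each pair need not be changes of separate molecules, and the part of read division in them was not tested.

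Levels between genes can be compared only per length. MT-ATP8 and MT-ATP6 are read from 1 mRNA, and MT-ND4L overlaps MT-ND4 with no tRNA between them. Gaps within these pairs need not be gaps between molecules, and their source was not tested. In controls the mean per kilobase ran from 8902 CPM for MT-ATP8 through 8310 for MT-CO1, 7354 for MT-ATP6, 6420 for MT-CO2, 6042 for MT-ND4 and 5360.1 for MT-ND2 to 3566 for MT-ND1. MT-ND4L was at 2822, MT-ND5 at 2560.4, MT-CO3 at 2503, MT-CYB at 2342, MT-ND6 at 504 and MT-ND3 at 459 CPM per kilobase. The order of MT-ND5 and MT-CO3 differed between the 3 controls. The control ranges of MT-CO3 and MT-CYB overlapped, as did those of MT-ND6 and MT-ND3. Within each control library, however, MT-CO3 was above MT-CYB and MT-ND6 above MT-ND3. The other neighbours in this order did not overlap between controls. MT-ND6, read from the strand that carries no other mRNA, was thus among the rarest mRNAs, and MT-ND3, from the other strand, was lower in each control library.

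Length followed the difference among the mRNAs in replicates 2 and 3. Across the 13 mRNAs the Spearman correlation of the log2 change with gene length was -0.27 in TTC3 shRNA replicate 1, -0.68 in replicate 2 and -0.79 in replicate 3, a description chosen after the values were seen. The points share 1 library and 1 control mean each, and genes are not independent replicates. Length here is that of the annotated gene, which need not be that of the RNA molecule. MT-ATP8 and MT-ATP6, for example, are read from 1 mRNA. Per doubling of length the log2 change moved by -0.01, -0.28 and -0.41. Without MT-ATP8 and MT-ND4L, which overlap longer genes, it moved by -0.05, -0.30 and -0.42. MT-ND1 departed from this order, at 0.35 and 0.38 in replicates 2 and 3 despite its 956 bases.

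Nuclear protein-coding genes of at least 5 CPM showed a weaker slope in the same libraries, -0.02, -0.09 and -0.11 per doubling over 10741, 10739 and 10741 genes. Nuclear length here is the middle value of a gene's annotated protein-coding transcript lengths, and mitochondrial length is the span of the gene. At like lengths by these measures the mitochondrial mRNAs lay lower than the nuclear ones in replicates 2 and 3. Between 1200 and 2000 bases the medians were -0.66 and -0.79 for 3 mitochondrial mRNAs and 0.11 and 0.13 for 2159 nuclear genes. Between 200 and 400 bases they were 0.04 and 0.25 for 3 mitochondrial mRNAs and 0.58 and 0.68 for 27 nuclear genes. These 3 mitochondrial genes included MT-ATP8 and MT-ND4L, which overlap longer genes. The part of the length trend in the mRNA differences was not tested.

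**Figure D3:**
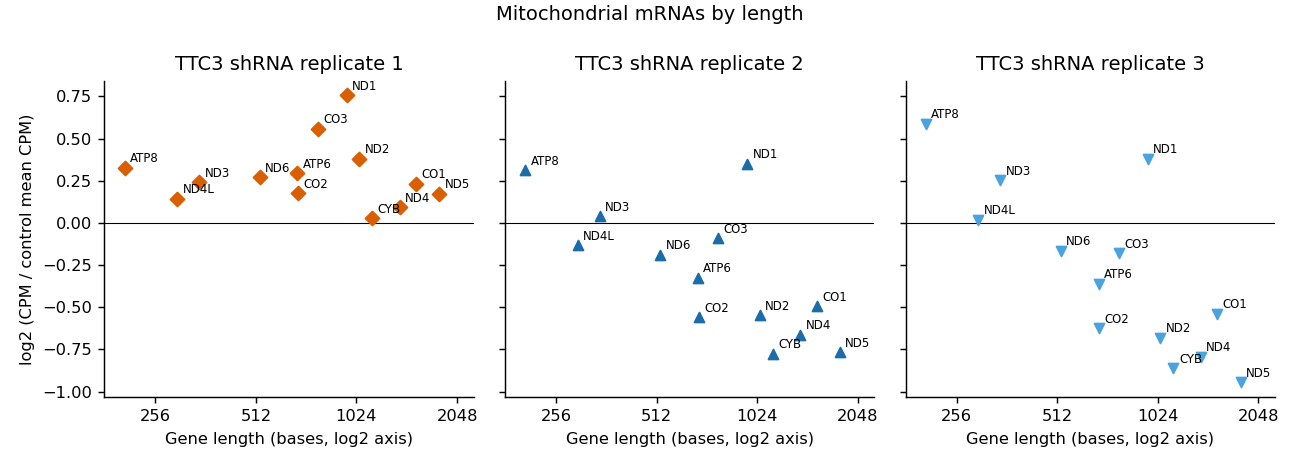
Log2 of CPM over the control mean (y axis) against gene length in bases (x axis, log2 scale) for the 13 mitochondrial mRNAs, 1 panel per TTC3 shRNA replicate. The points fall with length in replicates 2 and 3 (-0.28 and -0.41 per doubling) and not in replicate 1 (-0.01), with MT-ND1 above the others of its length.

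The rRNAs of the mitochondrial ribosome had few counts in these rRNA-depleted libraries, and MT-RNR2 rose while MT-RNR1 did not pass. MT-RNR2, the large-subunit rRNA (ENSG00000210082.2, chrM:1671-3229), had 616, 618 and 543 counts in controls and 975, 800 and 961 counts in TTC3 shRNA replicates 1, 2 and 3. In CPM it was at 3.84, 3.83 and 3.63 against 6.47, 5.84 and 6.69. All 3 TTC3 shRNA libraries were above all controls, with a log2 change of 0.75 ± 0.11 (SE, edgeR adjusted p = 0.00240). Relative to the mitochondrial mRNAs its change was 0.98 ± 0.25 (SE, edgeR adjusted p = 0.0423). That relative call was lost with limma-voom (adjusted p = 0.0565), with any 1 control left out (edgeR adjusted p = 0.164 to 0.188) and without TTC3 shRNA replicate 2 or 3 (0.134 and 0.136).

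MT-RNR1, the small-subunit rRNA (chrM:648-1601), had 164, 135 and 103 counts in controls and 139, 229 and 335 with TTC3 shRNA. Replicate 1 lay within the control range and replicates 2 and 3 above it, so the groups overlapped (log2 change 0.95 ± 0.34 SE, edgeR adjusted p = 0.0693). DESeq2 called both rRNAs higher, as did edgeR without TTC3 shRNA replicate 1. The ratio of MT-RNR2 to MT-RNR1 counts was 3.76, 4.58 and 5.27 in controls and 7.01, 3.49 and 2.87 with TTC3 shRNA (exact permutation p = 0.9). Since the libraries were rRNA-depleted, these values do not measure the rRNA content of the cells.

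The tRNAs were the class with the largest median change. Their log2 changes ran from 0.15 for MT-TS1 to 1.88 for MT-TC, and the medians by library were 1.11, 1.03 and 1.12 in TTC3 shRNA replicates 1, 2 and 3. Of the 20 tested tRNAs 20, 19 and 20 lay above the control mean in these replicates. The median rise was thus of like size in replicate 1, where the mRNAs were high, and in replicates 2 and 3, where most were low. Single tRNAs differed between the replicates. The log2 change in replicates 2 and 3 minus that in replicate 1 ran from -1.08 for MT-TH to 1.09 for MT-TN. DESeq2 called 18 of 20 higher and limma-voom 17. Relative to the mitochondrial mRNAs edgeR called 15 of 20 higher (3.44% of all genes) and 0 lower (0 at an unadjusted p under 0.05, 0 by limma-voom). This relative count was 4 to 5 when any 1 control was left out and 8 and 9 without TTC3 shRNA replicates 2 and 3. It was 20 without replicate 1, where 46.4% of all genes were called higher.

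A count over a tRNA gene can come from the mature tRNA or from uncut precursor, and the table cannot tell these apart. Mature tRNAs are short, folded and modified, and the column extraction named in the labels retains short RNA poorly. Nuclear genes of at most 100 bases, a like length class, had median log2 changes of 0.07, 0.19 and 0.36 in TTC3 shRNA replicates 1, 2 and 3 (n = 274), lower than the tRNA medians in each. Whether counting used the strand is not given in the sources used here, so reads from a tRNA and from the opposite strand's precursor may be mixed.

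The 3 tRNAs with the highest control level per length were MT-TS1, MT-TL1 and MT-TY, at 791, 646 and 446 CPM per kilobase. Each lies beside a longer RNA, but so do many other tRNAs, such as MT-TW and MT-TH at 46.0 and 24.6 CPM per kilobase. MT-TS1 (serine, chrM:7446-7514) lies on the opposite strand to MT-CO1, and its last base is next to the last base of MT-CO1. It was at 51.2, 55.9 and 56.6 CPM in controls against 61.2, 54.2 and 65.9 CPM in TTC3 shRNA replicates 1, 2 and 3. It was the one tested tRNA whose groups overlapped, and it did not pass (log2 change 0.15 ± 0.09 SE, edgeR adjusted p = 0.236). MT-TL1 (leucine, chrM:3230-3304) lies between MT-RNR2 and MT-ND1, and was at 47.6, 47.2 and 50.6 CPM against 96.9, 62.4 and 62.7 CPM. It rose by 0.61 ± 0.17 (log2 change and SE, edgeR adjusted p = 0.0323), most in replicate 1, as did its neighbour MT-ND1. The call of MT-TL1 was lost when any 1 control was left out (edgeR adjusted p = 0.0869 to 0.107), with library totals (0.0930) and without the filter (0.0586).

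The 4 tRNAs MT-TA, MT-TN, MT-TC and MT-TY, printed above, had their highest levels in TTC3 shRNA replicates 2 and 3. MT-TY was at 30.4, 28.8 and 28.99 CPM in controls and 63.3, 88.6 and 110.5 CPM with TTC3 shRNA. It rose by 1.57 ± 0.19 (log2 change and SE, edgeR adjusted p = 0.00119). MT-TC, whose first base is the last base of MT-TY, was at 2.26, 2.02 and 1.95 CPM against 4.53, 7.88 and 10.5 CPM, the largest rise of the tRNAs at 1.88 ± 0.29 (SE, edgeR adjusted p = 0.00354).

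MT-TA was at 1.68, 1.87 and 1.91 CPM against 4.52, 5.59 and 6.09 CPM (log2 change 1.57 ± 0.15 SE, edgeR adjusted p = 0.000486). MT-TN, with 25 to 26 counts per control library and 41 to 94 with TTC3 shRNA, was at 0.162, 0.155 and 0.174 CPM against 0.272, 0.511 and 0.654 CPM (edgeR adjusted p = 0.0160, lost without any 1 control or without TTC3 shRNA replicate 2). None of the 4 overlapped between groups, and in each replicate 3 was the highest and replicate 1 the lowest of the TTC3 shRNA libraries. Summed over the 4, counts were 5532, 5307 and 4935 in controls and 10948, 14055 and 18351 with TTC3 shRNA, in CPM 2.17-, 3.06- and 3.82-fold the control mean. MT-TW, which faces them on the plus strand, was at 3.18, 2.97 and 3.24 CPM against 7.36, 7.83 and 8.04 CPM, nearly the same in all 3 TTC3 shRNA libraries (log2 change 1.31 ± 0.10 SE, edgeR adjusted p = 0.000196).

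The 3 tRNAs between MT-ND4 and MT-ND5 had replicate 1 as the highest library, followed by replicates 3 and 2. MT-TH was at 1.73, 1.73 and 1.63 CPM in controls and 4.81, 2.27 and 2.28 CPM in TTC3 shRNA replicates 1, 2 and 3. Its groups did not overlap, yet it did not pass (log2 change 0.88 ± 0.30 SE, edgeR adjusted p = 0.0626), and passed with DESeq2 and, by edgeR, relative to the mRNAs. That relative call was lost with any library but TTC3 shRNA replicate 1 left out (edgeR adjusted p = 0.0563 to 0.164). MT-TS2 was at 0.886, 0.879 and 0.803 CPM against 2.80, 1.59 and 1.64 CPM and rose (edgeR adjusted p = 0.00930).

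MT-TL2 was at 0.792, 0.737 and 0.790 CPM against 2.52, 2.07 and 2.21 CPM, and rose by 1.55 ± 0.14 (SE, edgeR adjusted p = 0.000416). Summed over these 3 tRNAs, counts were 546, 541 and 481 in controls and 1527, 813 and 881 with TTC3 shRNA, in CPM 3.05-, 1.78- and 1.84-fold the control mean. Both neighbourhoods were therefore above control in every TTC3 shRNA library, with replicate 1 lowest of the 3 in the first and highest in the second. They were picked after their values were seen, and the difference between them was not tested.

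**Figure D4:**
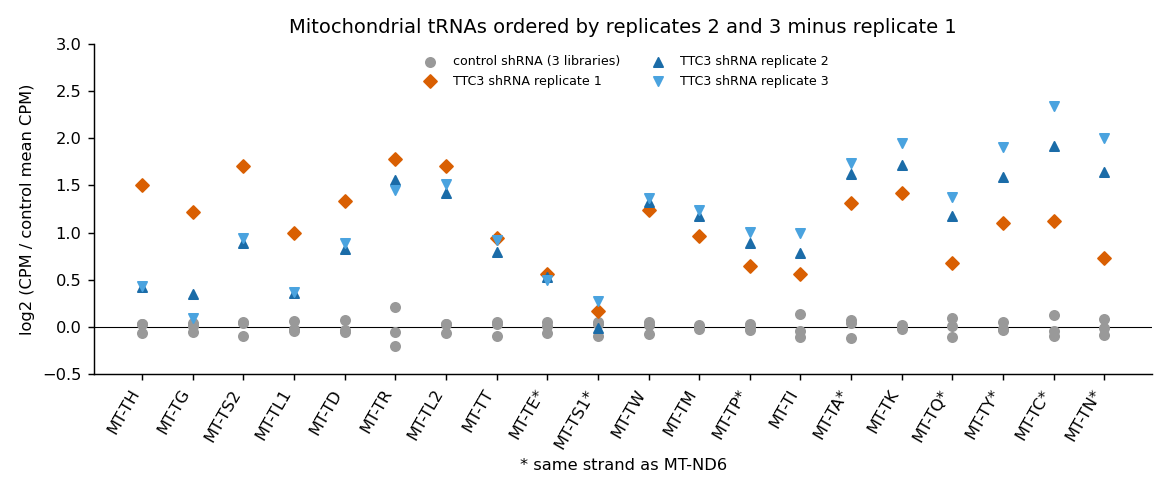
Log2 of CPM over the control mean (y axis) for the 20 tested tRNAs (x axis), ordered by the mean of TTC3 shRNA replicates 2 and 3 minus replicate 1, with the tRNAs of the MT-ND6 strand starred and controls in grey. MT-TH, MT-TG and MT-TS2 at the left are highest in replicate 1, and MT-TY, MT-TC and MT-TN at the right are highest in replicate 3.

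Other plus-strand tRNAs were higher as well, with either order. MT-TD (aspartate, chrM:7518-7585) was at 3.07, 2.81 and 2.86 CPM against 7.34, 5.16 and 5.41 CPM (log2 change 1.03 ± 0.16 SE, edgeR adjusted p = 0.00347). MT-TG (glycine, chrM:9991-10058) was at 0.437, 0.409 and 0.428 CPM against 0.988, 0.540 and 0.452 CPM, which did not pass (edgeR adjusted p = 0.157). Both were highest in replicate 1, and in MT-TG replicate 3 barely exceeded the highest control.

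MT-TR (arginine, chrM:10405-10469) was at 0.206, 0.186 and 0.248 CPM against 0.730, 0.627 and 0.585 CPM (log2 change 1.60 ± 0.22 SE, edgeR adjusted p = 0.00206). MT-TK (lysine, chrM:8295-8364), next to MT-ATP8, was at 2.70, 2.74 and 2.67 CPM against 7.22, 8.88 and 10.4 CPM, and at 1.71 ± 0.15 had the second largest rise (SE, edgeR adjusted p = 0.000337). MT-TT (threonine, chrM:15888-15953), which follows MT-CYB, was at 5.68, 5.13 and 5.60 CPM against 10.6, 9.51 and 10.4 CPM (edgeR adjusted p = 0.000800). MT-TK was highest in replicate 3 and MT-TR in replicate 1, whereas the 3 TTC3 shRNA values of MT-TT were close together and about as far above control as each other.

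The tRNAs between MT-ND1 and MT-ND2 are MT-TI, MT-TQ and MT-TM, and all 3 rose. MT-TI (isoleucine, chrM:4263-4331) was at 3.30, 2.92 and 2.79 CPM against 4.42, 5.19 and 6.001 CPM (log2 change 0.79 ± 0.15 SE, edgeR adjusted p = 0.00747). MT-TQ (glutamine, chrM:4329-4400, opposite strand) was at 2.21, 2.36 and 2.05 CPM against 3.54, 4.97 and 5.75 CPM (1.11 ± 0.19, edgeR adjusted p = 0.00551). MT-TI and MT-TQ share bases at their ends on opposite strands.

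MT-TM (methionine, chrM:4402-4469), the tRNA that also starts translation in mitochondria, was at 1.98, 1.95 and 2.02 CPM against 3.87, 4.47 and 4.68 CPM (1.13 ± 0.13, edgeR adjusted p = 0.000887). In MT-TI, MT-TQ and MT-TM replicate 1 was the lowest of the TTC3 shRNA libraries, although MT-ND1 and MT-ND2 on either side were highest in it. These tRNAs and the mRNAs beside them thus ranked the TTC3 shRNA libraries differently.

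On the MT-ND6 strand, MT-TE (glutamate, chrM:14674-14742), next to MT-ND6, was at 8.17, 7.51 and 7.90 CPM in controls and 11.6, 11.4 and 11.1 CPM with TTC3 shRNA. It rose by 0.53 ± 0.08 (log2 change and SE, edgeR adjusted p = 0.00369), evenly in the 3 libraries, while MT-ND6 did not. MT-TP (proline, chrM:15956-16023), the first tRNA of that strand, was at 3.36, 3.31 and 3.45 CPM against 5.27, 6.23 and 6.79 CPM (0.86 ± 0.13, edgeR adjusted p = 0.00284). Both were thus above all controls in every TTC3 shRNA library.

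By strand, the tRNA medians ordered the TTC3 shRNA libraries differently, with exceptions on each strand. The 8 tRNAs of the MT-ND6 strand had medians of 0.71, 1.38 and 1.56 in TTC3 shRNA replicates 1, 2 and 3. Those of the other strand, 12 of them tested, had medians of 1.28, 0.86 and 0.97. On the MT-ND6 strand MT-TE and MT-TS1 were about as high in replicate 1 as in replicates 2 and 3, and on the other strand MT-TW, MT-TM, MT-TI and MT-TK were higher in replicates 2 and 3, as most MT-ND6-strand tRNAs were. The difference between the strands was not tested gene by gene. The ratio of their summed counts, MT-ND6 strand over the other, was 1.39, 1.46 and 1.40 in controls and 1.03, 1.62 and 1.89 with TTC3 shRNA. Replicate 1 was below and replicates 2 and 3 above all controls, so the means hardly differed (log2 difference 0.05, exact permutation p = 0.9, two-sided). Most of these counts lie on MT-TS1 and MT-TY on the MT-ND6 strand and on MT-TL1 on the other.

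The ratio between the classes within a library, which needs no scaling, also separated the groups for the tRNAs. Counts on tRNAs were 0.326%, 0.340% and 0.335% of those on mRNAs in controls and 0.485%, 0.742% and 0.875% in TTC3 shRNA replicates 1, 2 and 3. All 3 TTC3 shRNA libraries were above all controls, with a log2 difference of 1.03 (SD 0.0306 in controls and 0.439 with TTC3 shRNA). The exact permutation p was 0.1 (two-sided, the smallest possible, adjusted p = 0.25 over 5 ratios). The rRNA to mRNA ratio differed by 0.98 on the log2 scale with the same p values. The ratio of MT-ND6 to the other 12 mRNAs differed by 0.17 (exact permutation p = 0.3, adjusted p = 0.5), and was higher in replicates 2 and 3 only.

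Nuclear pseudogenes that are near copies of mitochondrial genes bear on these levels, since reads may be divided between a gene and its copy. Of 404 such copies 33 were tested, and 3 were called higher and 0 lower by edgeR (2 lower at an unadjusted p under 0.05, 0 by DESeq2 or limma-voom). The shares over all tested genes were 15.7% higher and 17.8% lower. MTND2P28 held 149448, 148600 and 140697 counts in controls and 183810, 86677 and 88671 with TTC3 shRNA, which is 16.5%, 16.9% and 16.7% of MT-ND2 in controls and 16.8%, 16.6% and 17.7% with TTC3 shRNA. MTCO1P12 held 4.19% to 4.43% of the MT-CO1 count in controls and 4.18%, 4.83% and 5.13% with TTC3 shRNA. Both copies thus followed their mitochondrial genes from library to library.

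MTATP6P1 did not keep to its gene in this way. It held 83516, 83806 and 81005 counts in controls and 94032, 87075 and 101319 with TTC3 shRNA, and rose by 0.31 ± 0.07 (SE, edgeR adjusted p = 0.0149). It was 10.5%, 10.5% and 10.6% of MT-ATP6 in controls and 10.2%, 15.9% and 18.1% in TTC3 shRNA replicates 1, 2 and 3. MTND1P23, named after its values were seen, held 3751, 3410 and 3202 counts in controls, 5319 and 3183 in TTC3 shRNA replicates 1 and 2, and none in replicate 3. Where it had counts, they were 0.534% to 0.673% of those of MT-ND1. The other copies called higher, named for the same reason, were MTCO2P12 and MTCO3P12.

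The nuclear lists covered mitochondrial transcription, RNA processing, RNA modification and aminoacylation. Of their 89 tested genes 31 were higher and 1 lower by edgeR, with a median log2 change of 0.21 (background 15.7% and 17.8%, median -0.02). The count of 31 higher among the 89 genes was 14 or 15 when any 1 control was left out, 18 without TTC3 shRNA replicate 2 and 56 without replicate 1. The count over all genes moved likewise, from 3827 to 1835 to 1876, 2200 and 6674 in these settings. In transcription and replication of mitochondrial DNA 4 of 14 were higher and 1 lower. The transcription factor TFB2M went from 18.4 ± 0.519 to 24.3 ± 2.28 CPM (SD, n = 3 each) and rose by 0.41 ± 0.09 (SE, edgeR adjusted p = 0.0118). MRPL12, a ribosomal protein also reported to bind POLRMT, was at 87.5, 90.7 and 90.9 CPM against 113, 210.0 and 239 CPM (edgeR adjusted p = 0.0173), highest where the mRNAs were lowest. SSBP1, which coats single-stranded mitochondrial DNA, rose by 0.28 ± 0.07, and POLG, the DNA polymerase, fell by 0.62 ± 0.12 (SE, edgeR adjusted p = 0.0189 and 0.00852).

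Among 29 genes of mitochondrial RNA processing, stability and decay 8 were higher. LRPPRC and SLIRP form a complex that stabilises mitochondrial mRNAs. LRPPRC was at 228, 218 and 216 CPM in controls and 308, 289 and 285 CPM with TTC3 shRNA, and rose by 0.42 ± 0.06 (SE, edgeR adjusted p = 0.00317). SLIRP rose by 0.39 ± 0.07 (edgeR adjusted p = 0.00681), so both were higher in all 3 TTC3 shRNA libraries, including those with low mRNAs. FASTKD1, a mitochondrial RNA-binding protein, rose by 0.68 ± 0.08, and REXO2, which degrades very short RNAs, by 0.42 ± 0.08 (edgeR adjusted p = 0.00119 and 0.00900). None of the 29 was called lower by edgeR (2 at an unadjusted p under 0.05, 2 by DESeq2, 1 by limma-voom).

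Of 25 genes listed for modification of mitochondrial tRNA or rRNA 11 were higher. TRMT61B, a tRNA methyltransferase, went from 14.1 ± 0.444 to 19.9 ± 0.0828 CPM (SD, n = 3 each). The pseudouridine synthases RPUSD3, RPUSD4 and TRUB2, which modify mitochondrial RNAs, rose by 0.75 ± 0.12, 0.71 ± 0.10 and 0.58 ± 0.09 (SE). The edgeR adjusted p was 0.00207 for TRMT61B and 0.00218 to 0.00361 for the others.

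Of 22 genes that charge mitochondrial tRNAs 8 were higher. The methionyl enzyme MARS2 went from 14.8 ± 0.413 to 26.1 ± 2.83 CPM and rose by 0.82 ± 0.09 (SE, edgeR adjusted p = 0.00106). GATB, of the complex that makes glutaminyl-tRNA, rose by 0.66 ± 0.08, the asparaginyl enzyme NARS2 by 0.43 ± 0.06 and the isoleucyl enzyme IARS2 by 0.32 ± 0.06. Neither the 25 modification genes nor the 22 charging genes had a member called lower by edgeR (0 and 1 at an unadjusted p under 0.05, 0 and 1 by DESeq2, 0 and 0 by limma-voom).

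The nuclear partners of the mitochondrially encoded subunits did not share their course. Of 75 nuclear subunits of complexes I, III, IV and V, 56 were higher and 1 lower (15.7% and 17.8% of all tested genes). Their median log2 change was 0.55. By library their medians were 0.28, 0.60 and 0.65 in TTC3 shRNA replicates 1, 2 and 3, lowest in the replicate in which the mitochondrial mRNAs were highest. In complex I the median was 0.23, 0.60 and 0.68 for 37 nuclear subunits and 0.24, -0.19 and -0.17 for 7 mitochondrial ones. In complex IV it was 0.29, 0.67 and 0.75 for 11 nuclear subunits and 0.23, -0.49 and -0.54 for 3 mitochondrial ones. In complex V it was 0.36, 0.53 and 0.56 for 18 nuclear subunits and 0.31, -0.01 and 0.11 for MT-ATP8 and MT-ATP6. In complex III it was 0.33, 0.71 and 0.95 for 9 nuclear subunits against 0.03, -0.77 and -0.86 for MT-CYB. In replicate 1 both medians lay above the control mean in complexes I, IV and V, while MT-CYB of complex III was within the control range. In replicates 2 and 3 the nuclear medians were above control and the mitochondrial ones below it, apart from complex V. There the mitochondrial medians were near or above control, with MT-ATP8 above and MT-ATP6 below the control mean in both replicates.

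NDUFA10 of complex I was at 58.5, 58.3 and 58.5 CPM in controls and 99.1, 94.9 and 93.9 CPM with TTC3 shRNA (log2 change 0.72 ± 0.06 SE, edgeR adjusted p = 0.000188). NDUFS1, its largest core subunit, rose by 0.71 ± 0.07 (edgeR adjusted p = 0.000678). ATP5F1B, the catalytic subunit of ATP synthase, and ATP5MC3, of its membrane ring, rose by 0.55 ± 0.06 and 0.73 ± 0.07. COX5A of complex IV, named because it was the 1 lower member, went from 54.6 ± 1.38 to 43.7 ± 3.45 CPM (SD, n = 3 each, edgeR adjusted p = 0.0159). Of the 4 subunits of complex II 3 were higher, SDHA, SDHB and SDHD, at 0.81 ± 0.12, 0.61 ± 0.09 and 0.65 ± 0.06. None of the 4 was called lower by edgeR (0 at an unadjusted p under 0.05, 0 by DESeq2 or limma-voom). The count of 56 higher subunits was 30 when any 1 control was left out and 34 without TTC3 shRNA replicate 2. The count over all genes fell likewise, from 3827 to 1835 to 1876 and to 2200.

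Abundant small RNAs also differed between TTC3 shRNA replicate 1 and the rest, in the opposite direction to the mitochondrial mRNAs. Polymerase III and abundant small RNAs took 6.92% ± 0.334 of counts in controls (SD, n = 3) against 5.61%, 9.81% and 11.7% in TTC3 shRNA replicates 1, 2 and 3. Of the 10 tested 2 were higher by edgeR, against 15.7% of all tested genes. These were RMRP and TERC, the RNAs of RNase MRP and telomerase. RMRP was at 1281 ± 43.5 CPM in controls and 1388, 2564 and 2861 CPM with TTC3 shRNA (edgeR adjusted p = 0.0374). The nuclear-retained RNAs MALAT1 and NEAT1 did not show that order. They were lower in all 3 TTC3 shRNA libraries, at -0.87 ± 0.07 and -1.49 ± 0.06 (SE, edgeR adjusted p = 0.000228 and 1.07e-05). What part these shifts have in the share of mitochondrial mRNA was not tested.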

How the data were processed

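PC3 RNA was sequenced in 3 control shRNA and 3 TTC3 shRNA libraries. The build hg38 and the tools StringTie, STAR and Trim Galore are named per the submitters' processing notes. Per the labels' protocols, rRNA was depleted and directional libraries were made. For versions, settings, annotation and use of strand in counting, nothing is stated in the labels or notes. The deposited gene table holds expected counts (StringTie-style estimated counts) as whole numbers, not scaled; 0 sample columns lacked a match. The transcript table was not used. Groups and replicate numbers came from the titles.

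The main model was edgeR 4.0.16 (R 4.3.3) with filterByExpr (defaults of 10 counts and 15 in total), and used TMM factors of 0.924 to 1.05, glmQLFit and glmQLFTest over all 24325 genes, no block, Benjamini-Hochberg adjusted p under 0.05. Fold changes are TTC3 shRNA over control, and SE is the log2 change divided by the square root of F. A second fit used the summed counts of the 13 mitochondrial mRNAs as library size. Single values were compared by exact permutation tests. The procedure was tested on simulated data. Positions and sequences came from GENCODE 29 (GRCh38), matched for all 37 members. Log2 changes of single libraries are CPM over the control mean. Depth was similar in all libraries, so precision for mRNAs is set by the spread between libraries, and counting error adds to it for tRNAs under 50 counts.

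By rule, values per library are given for all mRNAs and rRNAs and for tRNAs past a test or with at least 50 counts in each library, with up to 4 genes per nuclear list in order of adjusted p, the 3 highest pseudogene copies and TTC3. The members and lists were chosen with earlier results of these data known. Nuclear rRNA genes (3 tested, 0 called by edgeR, 0 at an unadjusted p under 0.05, 0 by DESeq2 or limma-voom) are not described further. Alternatives were other scalings, DESeq2 1.42.0, limma-voom (limma 3.58.1), other filters, an adjusted p of 0.01, a replicate block, other denominators and each library left out.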

Additional observations from a re-analysis of the deposited data

How the results depend on the processing

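The 17 tRNAs called higher were 15 to 18 under every alternative run. Scaling by library totals moved the median of all genes from -0.02 to -0.15 on the log2 scale, a shift that small changes must be read against. The replicate numbers did not pair the samples (correlations 0.0451, 0.0395 and -0.00582 between libraries with the same number), and with the replicate block 17 tRNAs, 1 rRNA and 2 mRNAs were higher, 0 mRNAs were higher relative to the mRNA pool and 2 of the 89 RNA metabolism genes were lower. Counts of mRNAs higher (2) were 0 at an adjusted p of 0.01, 1 with library totals and 0 to 2 with a library left out; mRNAs lower (0) were 0 to 8; rRNAs higher (1) were 2 with DESeq2 and 1 to 2. Relative to the mRNA pool, mRNAs higher were 0 to 6, mRNAs lower 0 to 5, rRNAs higher 0 to 2 (0 with limma-voom) and tRNAs higher 4 to 20. RNA metabolism genes higher (31) were 14 at 0.01, 19 with library totals and 14 to 56 with a library left out, and lower (1) were 4 with library totals and with DESeq2, 2 with limma-voom, 3 with at least 50 counts in 3 libraries and 1 to 12. Respiratory subunits higher (56) were 28 at 0.01 and 30 to 67, and lower (1) were 0 at 0.01 and 0 to 2. Fewer genes pass at 0.01 by construction, and the cause of the others was not tested. Over all genes the count higher (3827) was 1688 at 0.01, 2519 with library totals and 1835 to 6674 with a library left out. The count lower (4338) was 2394, 5354 and 2711 to 7065. Directions turned for MT-ND4L with library totals (-0.11) and at least 50 counts (-0.000310), and with a library left out for MT-ND4L (-0.0377 to 0.0844), MT-CO3 (-0.12 to 0.28), MT-ATP6 (-0.326 to 0.0259), MT-ND6 (-0.160 to 0.0726), the log2 ratio of MT-RNR2 to MT-RNR1 (-0.50 to 0.14) and that of MT-ND6-strand to other tRNAs (-0.13 to 0.31). Of these, MT-ATP6 and MT-ND6 passed the edgeR test as lower without TTC3 shRNA replicate 1, and no other passed in any of these settings. With 3 libraries a group, a tRNA with under 50 counts such as MT-TN is limited by counting error.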
